A study of Mus musculus with 6 samples.

Results

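A set of 8 synaptic scaffold and adhesion genes was measured in the hypothalamus of WT and *Fmr1* KO female mice. They are *Dlg4*, *Dlg1*, *Shank3* and *Homer1*, which encode postsynaptic scaffold proteins, *Ppfia4*, which encodes a presynaptic scaffold protein, and *Nlgn1*, *Nlgn2* and *Cntnap2*, which encode adhesion proteins of the cell surface. The genes were chosen by name, for their role at the synapse, with earlier results of these data known. All 8 had a probe among the 787 probes of the series. In the mouse RefSeq table of assembly GRCm38.p6, *Dlg4* and *Nlgn2* lie on chromosome 11, *Dlg1* on 16, *Shank3* on 15, *Homer1* on 13, *Ppfia4* on 1, *Nlgn1* on 3 and *Cntnap2* on 6. Each passed the count minimum, a raw count above 20 in at least 3 of the 6 lanes, together with 601 probes in all. The nCounter assay was used, which binds a barcoded probe pair to a target RNA and counts the barcodes one by one, with no amplification step. Each of the 3 WT and 3 *Fmr1* KO mice gave 1 lane with 50 ng of RNA. All 6 were females in diestrus at 8 weeks of age, perfused with cold PBS before dissection. The *Fmr1* KO mice were of the FVB.129P2-Fmr1tm1Cgr/J line, which carries the disrupted gene in every cell, and the WT mice were its congenic FVB controls. The tissue was the dissected hypothalamus with all its cells, so fewer cells of a type and less RNA per cell cannot be told apart. The *Fmr1* transcript was not analysed here and therefore gave no check of the labels.

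At an excitatory synapse the presynaptic terminal and the postsynaptic density face each other across the cleft. Neuroligins on the postsynaptic membrane bind neurexins on the terminal, and scaffold proteins below the membrane hold receptors in place and connect them to the cytoskeleton. FMRP, the product of *Fmr1*, is an RNA-binding protein best known for repressing translation of neuronal mRNAs, and the mRNAs of *Dlg4* and *Shank3* are among its known targets in brain. The nCounter assay reads the amount of mRNA and not its translation.

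Total counts ranged from 165514 to 339934 per lane, both extremes being *Fmr1* KO lanes. A normalized count is the raw count multiplied by a factor for its lane, taken from the authors' table and ranging from 0.767 to 1.72. The lane of *Fmr1* KO replicate 2 had the fewest counts and the highest factor. Of 14 hypothalamic marker genes, 13 were above the count minimum in every lane, and the exception was *Kiss1* with a raw count of 17 in *Fmr1* KO replicate 2. The deposited columns are numbered 1 to 3 for WT and 4 to 6 for *Fmr1* KO, and position in the run cannot be told apart from genotype.

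By edgeR's quasi-likelihood test, none of the 8 genes passed an adjusted p of 0.05 between the genotypes, where 0.832% of the 601 tested probes passed (0.499% higher and 0.333% lower in *Fmr1* KO mice). *Ppfia4* alone had an unadjusted p under 0.05 from edgeR, toward higher values in *Fmr1* KO mice, where 5.66% of tested probes had the same, and no member did toward lower values, where 2.83% of tested probes did. In DESeq2 none of the 8 had an unadjusted p under 0.05, where 5.66% of tested probes did, or an adjusted p under 0.05, where 1.16% did. All 3 *Fmr1* KO values exceeded all WT values for *Dlg4*, *Ppfia4* and *Cntnap2*, where 6.82% of tested probes showed this. *Dlg4* and *Ppfia4* are genes that the study singled out from these mice, so their separation is not independent evidence. No member lay below WT in every *Fmr1* KO mouse, where 6.82% of tested probes did. The median log2 fold change of *Fmr1* KO over WT was 0.080 for the 8 genes and 0.0085 for all tested probes, and 6 of the 8 were above 0, beside 52.7% of all tested probes.

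**Figure D1:**
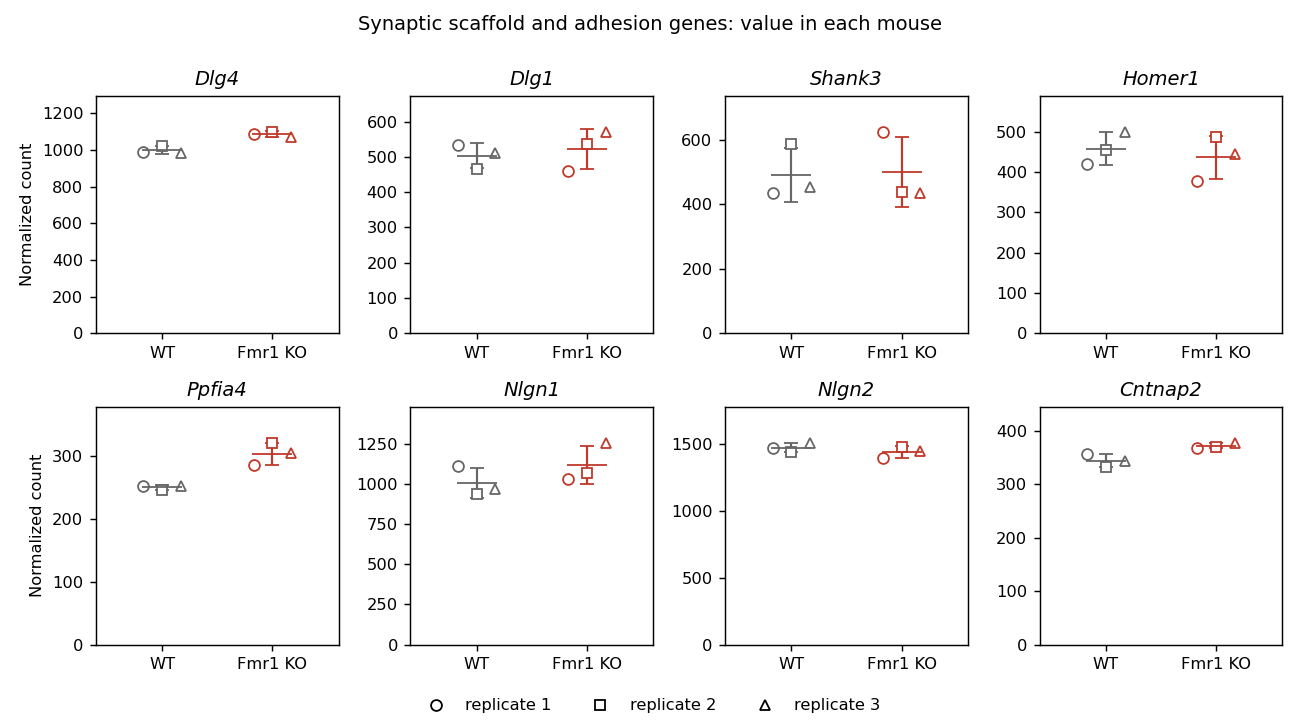
Normalized count (vertical axis, starting at 0) of each of the 8 genes in each mouse, WT in grey and *Fmr1* KO in red; symbols give the replicate number, horizontal lines the mean and bars the SD over 3 mice. The groups do not overlap for *Dlg4*, *Ppfia4* and *Cntnap2*, and overlap for the other 5 genes.

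*Dlg4* encodes PSD-95, the main scaffold of the excitatory postsynaptic density, which anchors glutamate receptors and binds neuroligins. WT mice had 991, 1024 and 985 normalized counts and *Fmr1* KO mice 1089, 1099 and 1069, each in the order of replicates 1, 2 and 3, as for all genes below. The lowest *Fmr1* KO mouse was above the highest WT mouse, by a margin of the same order as the counting error of a single lane, which was 2.65 to 3.95 percent. The means were 999.6 ± 21.0 and 1085 ± 15.4 (SD, n = 3 each). This gave a log2 fold change of 0.12 with a 95% interval from -0.019 to 0.26 (adjusted p = 0.667 from edgeR). In fold terms the interval ran from 0.987 to 1.19, so a change above 1.19-fold lay outside it.

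*Dlg1* encodes SAP97, a relative of PSD-95 that takes part in moving AMPA receptors to the synapse. WT mice had 535, 464 and 511 normalized counts, and *Fmr1* KO mice had 459, 537 and 571. The *Fmr1* KO mice held both the lowest and the highest value, and the groups overlapped. On the log2 scale the fold change was 0.048 with a 95% interval from -0.17 to 0.27 (adjusted p = 0.934 from edgeR).

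The ratio of *Dlg4* to *Dlg1* within a lane does not depend on the lane factor. It was 1.85, 2.20 and 1.93 in the WT lanes and 2.37, 2.04 and 1.87 in the *Fmr1* KO lanes, in replicate order, and the groups overlapped. The log2 ratio was 0.99 ± 0.13 in WT against 1.06 ± 0.17 for *Fmr1* KO (SD, n = 3 each; p = 0.6, exact two-sided permutation test, which cannot go below 0.1 with 3 mice against 3). The difference was 0.069, and without *Fmr1* KO replicate 1 the difference of the log2 ratios was -0.024.

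*Shank3* encodes a master scaffold deep in the postsynaptic density, which joins the PSD-95 layer to Homer proteins and actin. It varied most among mice of the 8 genes. The WT values were 434, 588 and 454 normalized counts, and those of *Fmr1* KO mice 626, 438 and 437. One mouse of each genotype stood well above the other two, and the remaining 4 mice lay between 434 and 454. The counting error of a lane was 3.50 to 6.26 percent, while the spread between mice was 17.0 percent of the mean in WT and 21.7 percent in *Fmr1* KO mice. Its log2 fold change was 0.037, and the 95% interval from -0.30 to 0.38 was the widest of the 8 (adjusted p = 0.983 from edgeR). The direction was not stable: the log2 fold change was -0.17 without *Fmr1* KO replicate 1 and 0.18 without WT replicate 2.

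The same 2 mice, WT replicate 2 and *Fmr1* KO replicate 1, had the lowest *Dlg1* of their genotype. The ratio of *Shank3* to *Dlg1*, chosen after the values were seen, was 1.27 and 1.36 in these lanes and 0.765 to 0.890 in the other 4. The gene *Slc17a7*, a vesicular glutamate transporter best known from cortex, was highest in *Fmr1* KO replicate 1 with 296 normalized counts, with 151 and 90.1 in the other *Fmr1* KO mice and 86.3, 185 and 204 in WT mice. Its part in the *Shank3* values was not tested.

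*Homer1* encodes a scaffold that links metabotropic glutamate receptors to Shank proteins and to intracellular calcium stores. It also has a short form that neurons make within a short time of activity, and which forms share the position of this probe was not determined here. Its level was 419, 454 and 499.7 normalized counts in the WT mice, against 378, 486 and 445 in the *Fmr1* KO mice. The groups overlapped, with the lowest value in *Fmr1* KO replicate 1. Its log2 fold change was -0.080 with a 95% interval from -0.32 to 0.16 (adjusted p = 0.916 from edgeR), and it was 0.019 without *Fmr1* KO replicate 1. In the same fit the immediate early genes *Egr1* and *Fos*, which encode transcription factors made on neuronal activity, had log2 fold changes of 0.96 and 0.92 and passed the adjusted threshold. The activity-regulated genes *Arc*, *Jun* and *Bdnf* did not, with 0.44 for *Arc*, 0.23 for *Jun* and -0.016 for *Bdnf*. The interval of *Homer1* lay below those of *Egr1* and *Fos* and overlapped those of *Arc*, *Jun* and *Bdnf*, and these differences between genes were not tested.

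The sequence before the start of *Homer1*, an activity-regulated gene whose level did not pass the test, is shown beside that of *Ppfia4*, the gene with the highest log2 fold change of the 8. Both are the 250 bases before the first start that the RefSeq table of assembly GRCm38.p6 lists for the gene, 5′ to 3′ on the strand of the gene. Capitals in *Homer1* mark the half-site of the cAMP response element, TGACG on either strand, and capitals in *Ppfia4* mark the GC box, GGGCGG on either strand.
Homer1 (chr13:93303507-93303756, + strand): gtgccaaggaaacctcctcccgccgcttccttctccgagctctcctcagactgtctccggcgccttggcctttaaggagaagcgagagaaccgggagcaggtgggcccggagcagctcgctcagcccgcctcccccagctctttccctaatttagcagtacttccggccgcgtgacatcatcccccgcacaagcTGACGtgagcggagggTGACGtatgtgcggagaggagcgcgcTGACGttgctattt
Ppfia4 (chr1:134344717-134344966, - strand): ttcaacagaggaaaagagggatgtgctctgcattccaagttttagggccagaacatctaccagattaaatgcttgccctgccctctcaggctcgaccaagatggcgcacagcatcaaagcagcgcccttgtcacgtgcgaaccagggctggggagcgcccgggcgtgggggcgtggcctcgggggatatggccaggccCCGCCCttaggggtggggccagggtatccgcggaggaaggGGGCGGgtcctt
The *Homer1* window held 3 half-sites, and 0.688% of 32851 promoter windows of the same length held 3 or more, while 17.8% held at least 1. Of the 17 start sites listed for the 8 genes, 1 other window, at the last of the *Dlg4* starts, held a half-site. The *Ppfia4* window held 2 GC boxes and no half-site, and 32.7% of all windows held at least 1 GC box. Among the 17 windows of the 8 genes 7 held a GC box, with 4 in that of *Shank3* and 3 in that of *Nlgn2*, where 8.47% of all windows held 3 or more. These matches describe the letters only, and binding was not measured.

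*Ppfia4* encodes liprin-α4, a presynaptic scaffold of the active zone that takes part in neurotransmitter release. WT lanes gave 252, 246 and 253 normalized counts, whereas *Fmr1* KO lanes gave 286, 321 and 305. Each *Fmr1* KO mouse lay above all WT mice, and the WT mice were close together. The means were 250.4 ± 3.63 and 304 ± 17.5 (SD, n = 3 each), a ratio of 1.21. A ratio above 1.2 was found in 15.1% of tested probes and in no other of the 8 genes. On the log2 scale the fold change was 0.27, and *Ppfia4* was the only one of the 8 whose 95% interval, from 0.071 to 0.48, did not hold 0. It ranked 22 of 601 by p and did not pass after adjustment (adjusted p = 0.350 from edgeR, from 0.193 to 0.877 over the alternatives).

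Of 2 genes best known from cortical neurons, the transcription factor gene *Tbr1* was also above every WT mouse in each *Fmr1* KO mouse. It had 22.5, 23.9 and 29.5 normalized counts in the WT mice and 37.6, 63.5 and 41.7 in the *Fmr1* KO mice, at raw counts of 24 to 49, and did not pass the test (adjusted p = 0.306 from edgeR). The other gene, *Slc17a7*, overlapped between the groups. The summed myelin markers were 14012 to 21549 normalized counts in WT and 18671 to 26129 in *Fmr1* KO mice, and 15 of 16 tested had a log2 fold change above 0. The part of these cells in the *Ppfia4* values was not tested.

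*Nlgn1* encodes neuroligin-1, the adhesion protein of excitatory synapses. WT mice had 1112, 937 and 970 normalized counts, and *Fmr1* KO mice 1033, 1069 and 1254. One *Fmr1* KO mouse was above all WT mice and the other two lay within the WT range. Its log2 fold change was 0.15, second to that of *Ppfia4*, with a 95% interval from -0.052 to 0.36 (adjusted p = 0.726 from edgeR). It was 0.062 without *Fmr1* KO replicate 3 and 0.23 without WT replicate 1, the mouse with the highest WT value.

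*Nlgn2* encodes neuroligin-2, the adhesion protein of inhibitory synapses, where it binds the scaffold gephyrin. Its level was 1475, 1440 and 1510 normalized counts for WT, with 1396, 1483 and 1452 for *Fmr1* KO mice. All 6 mice lay within a narrow range and the groups overlapped. Its log2 fold change was -0.032 (adjusted p = 0.934 from edgeR). Its 95% interval ran from 0.887 to 1.08 in fold terms.

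The ratio of *Nlgn2* to *Nlgn1* within a lane was 1.33, 1.54 and 1.56 for WT, with 1.35, 1.39 and 1.16 for *Fmr1* KO lanes. WT replicates 2 and 3 were above all *Fmr1* KO lanes, and WT replicate 1 lay among the *Fmr1* KO values. The log2 ratio was 0.56 ± 0.13 in WT against 0.37 ± 0.14 for *Fmr1* KO (SD, n = 3 each), a difference of -0.18 that did not pass the test (p = 0.3, exact two-sided permutation test). The difference stayed below 0 with each mouse left out, from -0.26 to -0.10.

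*Cntnap2* encodes CASPR2, a relative of neurexins that clusters potassium channels along myelinated axons. The WT values were 357, 332 and 344 normalized counts, with 368, 371 and 377 for *Fmr1* KO. The *Fmr1* KO mice were all above the WT mice and lay within 10 counts of each other. The means were 344 ± 12.8 and 372 ± 4.73 (SD, n = 3 each). This gave a log2 fold change of 0.11 with a 95% interval from -0.070 to 0.29 (adjusted p = 0.766 from edgeR).

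**Figure D2:**
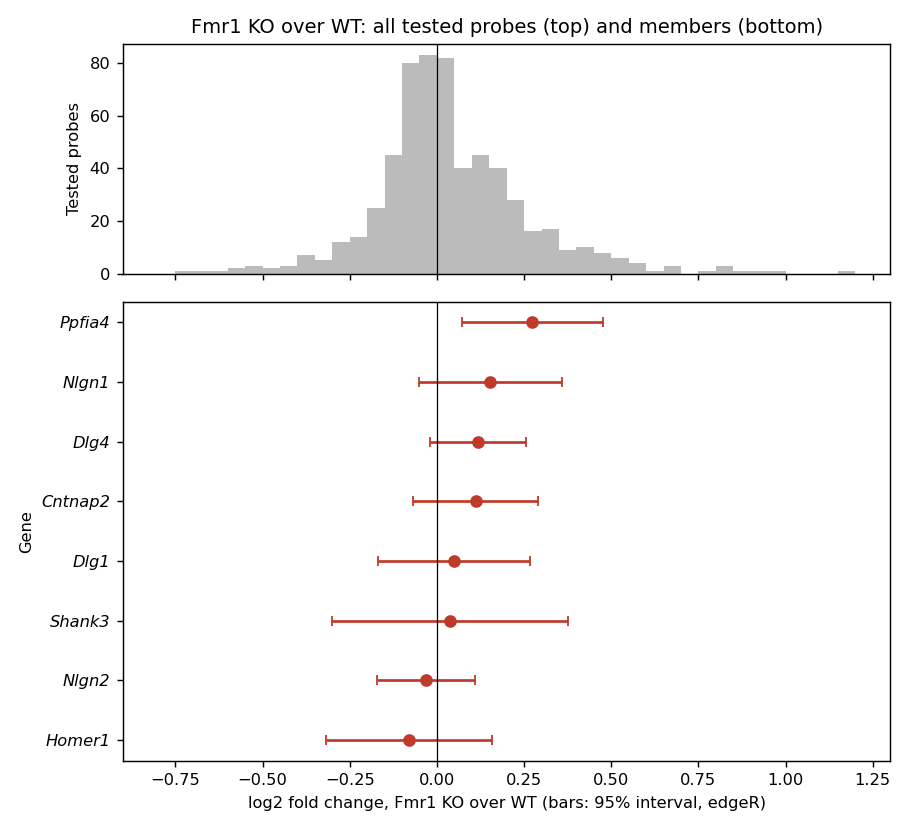
Top, the number of tested probes (vertical axis) by log2 fold change of *Fmr1* KO over WT; bottom, the log2 fold change of each of the 8 genes (points) with its 95% interval from edgeR (bars). The interval of *Ppfia4*, from 0.071 to 0.48, lies above 0, and those of the other 7 genes hold 0.

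The 3 genes whose groups did not overlap varied little between mice. For *Dlg4* and *Cntnap2*, with ratios of means of 1.09 and 1.08, groups can stay apart only where the spread is small. For *Dlg4*, *Ppfia4* and *Cntnap2* the SD over 3 mice was below the SD that counting alone gives, in both groups, where 12.8% of tested probes had the same. For *Ppfia4* in WT mice the SD was 3.63 normalized counts, and counting alone gives 15.4. For *Cntnap2* in *Fmr1* KO mice the SD was 4.73, and counting alone gives 21.2. Counting alone sets a lower limit to the error of the assay, so an SD below it understates that error. The methods' t-test takes each gene's own spread, and on log2 values it gave these 3 genes an unadjusted p under 0.05, where 4.33% of tested probes had the same toward higher values, and no member toward lower values, where 3.16% did. Their adjusted p by that test was 0.600. edgeR starts from each gene's own spread and pulls it toward that of probes with like counts, and by it only *Ppfia4* had an unadjusted p under 0.05. For *Shank3*, *Dlg1*, *Homer1* and *Nlgn1* the SD over mice was above that from counting in both groups.

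**Figure D3:**
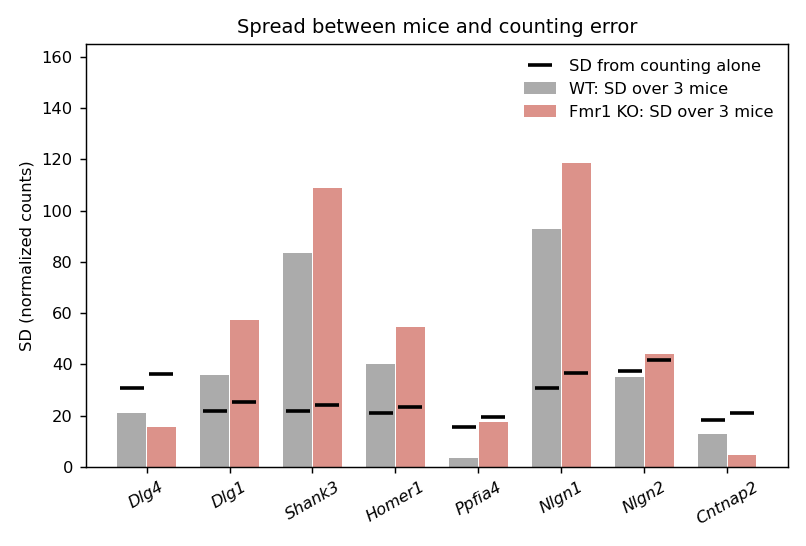
SD over 3 mice of the normalized count (bars, vertical axis) of each gene in WT (grey) and *Fmr1* KO mice (red), with the SD that counting alone gives (black marks). The bars of *Dlg4*, *Ppfia4* and *Cntnap2* lie below their marks in both groups, and those of *Shank3* and *Nlgn1* lie far above.

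The 8 genes were also set against general neuronal transcripts of the same lane. Of 21 listed neuronal markers 7 were tested (*Rbfox3*, *Tubb3*, *Nefl*, *Syp*, *Mapt*, *Tubb4a* and *Nrgn*), none passed, and their median log2 fold change was 0.085. The geometric mean of the 8 genes over that of these markers was 0.643, 0.612 and 0.566 for WT, with 0.615, 0.588 and 0.607 for *Fmr1* KO lanes. All *Fmr1* KO values lay within the WT range. The log2 difference was -0.0080 (p = 0.9, exact two-sided permutation test, n = 3 each). With lanes scaled to the neuronal markers, the log2 fold change was 0.034 for *Dlg4*, 0.027 for *Cntnap2*, 0.063 for *Nlgn1* and 0.19 for *Ppfia4*, and only these 4 of the 8 genes were above 0, beside 34.9% of all tested probes. The scaling shifted the tested probes as a whole and moved the median of all tested probes from 0.0085 to -0.076 and that of the 8 genes from 0.080 to -0.0058. *Ppfia4* over the neuronal markers, a ratio chosen after the values were seen, was 0.243 to 0.276 in WT and 0.290 to 0.301 in *Fmr1* KO lanes and still did not overlap. For *Dlg4* the same ratio was 0.947 to 1.08 in WT and 1.03 to 1.11 in *Fmr1* KO lanes, and overlapped.

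**Figure D4:**
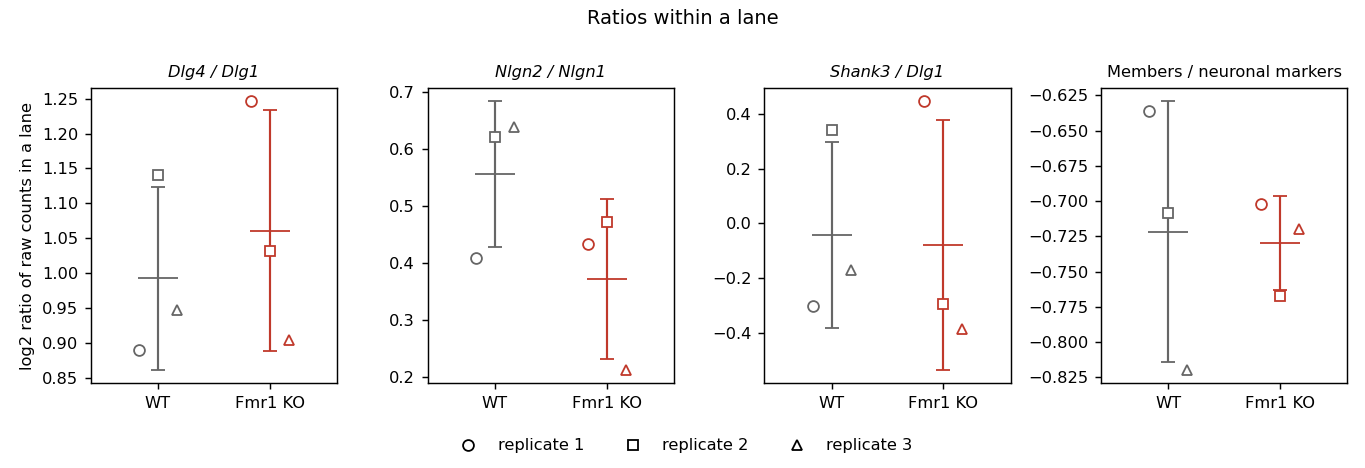
Log2 ratio of raw counts within a lane (vertical axis, not starting at 0) for *Dlg4* over *Dlg1*, *Nlgn2* over *Nlgn1*, *Shank3* over *Dlg1* and the geometric mean of the 8 genes over that of 7 neuronal markers, WT in grey and *Fmr1* KO in red; symbols give the replicate number, lines the mean and bars the SD over 3 mice. The groups overlap in each of the 4 ratios, and *Shank3* over *Dlg1* is high in 1 mouse of each genotype.

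Other synaptic genes of the panel were read as lists, and none of their tested members passed the adjusted threshold. Of 7 tested glutamate receptor genes, *Grm3*, a metabotropic receptor found on neurons and astrocytes, had 267 ± 30.8 normalized counts in WT against 344 ± 40.1 in *Fmr1* KO mice (SD, n = 3 each; log2 fold change 0.35, adjusted p = 0.350 from edgeR) and was the only one with an unadjusted p under 0.05. Over the 7 genes the median was 0.020. Of 5 tested genes of GABA receptors and transport, whose median was 0.076, *Gabra5*, a mostly extrasynaptic receptor subunit, had a log2 fold change of -0.25 (adjusted p = 0.614 from edgeR). The 3 tested vesicle genes had a median of 0.079, with 0.090 for *Syp*, encoding synaptophysin, and 0.079 for *Syn2*, encoding a synapsin. The 9 tested postsynaptic signaling genes had a median of -0.0047, and *Arc*, encoding an activity-induced regulator of AMPA receptors, had the highest log2 fold change, 0.44 (adjusted p = 0.602 from edgeR). No gene of the list of 34 other scaffold and adhesion genes was among the probes analysed here. That list does not hold every such gene, so the panel can hold others.

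Markers of other cells of the tissue gave the following values. Of 16 tested markers of myelinating oligodendrocytes 1, *Opalin*, was higher in *Fmr1* KO mice and 15 did not pass, with a median log2 fold change of 0.51, and 12 of the 16 had an unadjusted p under 0.05 from edgeR toward higher values. None of 5 astrocyte markers passed, while 2, *Slc1a3* and *Gja1*, had an unadjusted p under 0.05 toward lower values, and their summed counts were 8122 to 8708 in WT and 7131 to 7718 in *Fmr1* KO mice. None of 14 microglia markers and none of 7 endothelial markers passed, and the sums of both lists overlapped between the groups. The part of these cells in the values of the 8 genes was not tested.

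The mean of the 8 genes, each centred on its mean over the lanes on the log2 scale, was -0.039, -0.042 and -0.036 for WT, with 0.0027, 0.052 and 0.061 for *Fmr1* KO mice. As a description over 6 lanes, the tested probes most like this profile were *Trp53bp2*, a regulator of p53, with a Pearson correlation of 0.974, the kinase gene *Chuk* with 0.948, the integrin gene *Itga7* with 0.947, the methyltransferase gene *Setd7* with 0.933 and the oligodendrocyte gene *Opalin* with 0.928. They are the highest of 593 probes over only 6 lanes, which share the lane factors. All WT values of the profile lay below all *Fmr1* KO values, so these correlations include the difference between the genotypes.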

How the data were processed

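Hypothalamic RNA of 3 WT and 3 *Fmr1* KO mice was counted on the nCounter Mouse Neuroinflammation Panel with added probes, and the authors used nSolver software. The deposited raw table holds counts of 787 probes per lane, not normalized. The authors' value table holds a signal, the raw count times 1 factor per lane (within 0.00545, apart from 1 value set to 1), which the methods base on housekeeping genes of the panel. Of the probes, 772 were named by RefSeq accession and 15 by the table's symbol. The files name no genome build.

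Raw counts of the 601 probes with a raw count above 20 in at least 3 lanes were fitted with edgeR 4.0.16 (glmQLFit and glmQLFTest) in R 4.3.3, taking library sizes from those lane factors, with Benjamini-Hochberg adjustment over all tested probes. The standard error is the log2 fold change over the square root of F, and the 95% interval uses the fit's degrees of freedom. Ratios within a lane were compared by exact permutation (scipy 1.17.1). No 2 lanes of a group agreed within sampling noise (chi-square over degrees of freedom at least 3.11). The cage or litter of the mice is not given in the sources used here. The p-values set the genotype difference against the spread between these 6 mice, which edgeR draws in part from other probes.

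On simulated data of 601 probes with 200 changed, the edgeR fit of 3 *Fmr1* KO against 3 WT mice called 76.4% of 1.5-fold and 96.8% of 2-fold changes, and 96.5% of the 95% intervals held the true change. Far more probes were changed in the simulation than the 5 that passed in the mice. Many changed probes make the adjustment more lenient, so these shares can overstate what the fit finds here. Changes as small as those of the 8 genes were not simulated. Alternatives were other scalings, filters, background subtraction, DESeq2 1.42.0, limma 3.58.1, the methods' t-test, the replicate number as a block and each mouse left out. The genes named are the 8, members of each list that passed or had its 3 lowest p-values, and the 5 most like the mean profile, and some genes under this rule are not reported here. The members and lists were chosen with earlier results of these data known, and *Egr1*, *Fos*, *Slc17a7*, *Tbr1* and *Prl* were named after their values were seen. *Jun*, *Bdnf* and *Kiss1* were also named outside the rule.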

Additional observations from a re-analysis of the deposited data

How the results depend on the processing

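None of the 8 genes passed the adjusted threshold under any of the 19 alternatives, and the direction of *Dlg4*, *Ppfia4*, *Nlgn1*, *Nlgn2* and *Cntnap2* held under each. *Dlg1* had a log2 fold change of -0.039 with lanes scaled to neuronal markers, -0.0053 without WT replicate 2 and -0.025 without *Fmr1* KO replicate 3 (-0.025 to 0.14 with 1 mouse left out). *Shank3* had -0.039 with that scaling, -0.047 without WT replicate 1, -0.017 without WT replicate 3 and -0.17 without *Fmr1* KO replicate 1 (-0.17 to 0.18), and *Homer1* had 0.019 without the last (-0.16 to 0.019). The log2 difference of the *Dlg4* to *Dlg1* ratio ranged from -0.024 (without *Fmr1* KO replicate 1) to 0.15 with 1 mouse left out, that of *Nlgn2* to *Nlgn1* from -0.26 to -0.10, and that of the 8 genes to neuronal markers from -0.057 to 0.035, with 0.035 without WT replicate 1 and 0.011 without *Fmr1* KO replicate 2.

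The number of the 8 with an unadjusted p under 0.05, 1 in edgeR, was 0 with lanes scaled to neuronal markers and in DESeq2, 2 when only probes averaging 50 raw counts were kept (with *Dlg4*), 3 in the methods' t-test on either scale, log2 or linear, and 1 to 2 with 1 mouse left out (2 without WT replicate 1, with *Nlgn1*). Their median log2 fold change was -0.0058 with lanes scaled to neuronal markers and 0.081 to 0.12 with 1 mouse left out. Of all tested probes 5 passed, against 9 scaled to neuronal markers, 3 of probes averaging 50 raw counts, 0 in the methods' t-test on either scale, 3 with the replicate block and 2 to 11 with 1 mouse left out (leaving out WT replicate 1 or *Fmr1* KO replicate 3 gave 2, *Fmr1* KO replicate 1 gave 3, *Fmr1* KO replicate 2 gave 10 and WT replicate 3 gave 11). The cause of these changes was not tested.

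Whether the replicate numbers pair the mice is not known. Deviations of same-numbered mice correlated at -0.059, -0.077 and 0.10 over the tested probes. Those of other-numbered mice ranged from -0.17 to 0.23, and correlations so few and so spread cannot exclude a pairing. With the replicate block the log2 fold change was 0.28 for *Ppfia4* and 0.12 for *Dlg4*, and no call among the 8 genes changed. The ratio differences of 0.069, -0.18 and -0.0080 are the same by arithmetic with or without pairing, so they give no check of it. At 187 to 1821 counts per lane the counting error of a member was 2.34 to 7.31 percent, which limits how small a change could be seen in 1 lane.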
